A study of Homo sapiens with 4 samples.

Results

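In c-MYC ChIP-seq of MIA PaCa-2 cells treated with the inhibitor AMG510, 1257 promoter peaks had no counterpart in the DMSO c-MYC list. They were chosen from the calls themselves, as AMG510 peaks that shared no base with any DMSO c-MYC peak and whose summit was at most 1 kb from a start (TSS) of transcription annotated for protein-coding genes. These 1257 peaks were 44.8% of the 2806 AMG510 promoter peaks, and the AMG510 list held 10378 peaks out of 28327 in all 4 lists. Of all AMG510 peaks, 80.9% overlapped no DMSO peak, so absence from the DMSO list was more frequent away from promoters than at them. For 383 of the 1257 peaks (30.5%, 95% Wilson interval 28.0 to 33.1) a gene with its start near the peak had a DMSO promoter peak at another position, and for the remaining 874 it had none.

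MIA PaCa-2 is a long-established human line derived from a pancreatic carcinoma. Treatment lasted 8 h, with AMG510 at 100 nM, with trametinib, an inhibitor of the kinase MEK, at 10 nM, or with DMSO alone as the vehicle. Chromatin from each treatment was precipitated once with anti-c-MYC, and that of the DMSO cells once more with IgG as the control for non-specific pulldown. With 1 library per group there was no replicate error, so no difference below was tested, and each interval covers counting error only.

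c-MYC binds DNA as a dimer with MAX, another basic helix-loop-helix protein, at the E-box, a short palindrome. In tumour cells MYC is also found at many active promoters that lack an E-box, most of them rich in CpG. Its best known target genes serve ribosome production, translation, nucleotide synthesis and the cell cycle.

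Among the 10 peaks of largest fold enrichment with the canonical E-box CACGTG within 100 bp of their summit were those of genes with well-studied roles. CHSY1 makes chondroitin sulphate chains, PES1 matures the large ribosomal subunit, XPO1 exports proteins from the nucleus and PLK1 is a mitotic kinase. SHMT2 makes one-carbon units from serine inside mitochondria, H4C11 encodes histone H4 and PRKAR1A is a regulatory subunit of protein kinase A. FBXO17 is an F-box protein, GPCPD1 cleaves glycerophosphocholine and COL20A1 is a collagen. The reference sequence around the E-box is given on GRCh38 for these genes other than GPCPD1, 5′ to 3′, with the E-box in capitals. The lines for PES1 and PRKAR1A are kept to 30 bases because they touch an untranslated region. The E-box lay from 6 bp (PRKAR1A) to 92 bp (CHSY1) from the summit. At CHSY1 and H4C11 it reached past the edge of the called peak.
CHSY1, chr15:101252049-101252115, plus strand: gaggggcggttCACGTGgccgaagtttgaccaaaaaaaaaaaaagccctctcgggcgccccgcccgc
PES1, chr22:30591880-30591909, plus strand: cacttcctcccgCACGTGccctgccaagga
XPO1, chr2:61537118-61537181, plus strand: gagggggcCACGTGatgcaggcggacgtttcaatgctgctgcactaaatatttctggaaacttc
FBXO17, chr19:38975196-38975301, plus strand: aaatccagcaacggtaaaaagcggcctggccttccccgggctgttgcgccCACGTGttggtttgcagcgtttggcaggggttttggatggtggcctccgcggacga
PLK1, chr16:23678641-23678746, plus strand: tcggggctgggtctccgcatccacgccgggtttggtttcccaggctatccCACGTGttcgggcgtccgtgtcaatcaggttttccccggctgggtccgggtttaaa
SHMT2, chr12:57229864-57229969, plus strand: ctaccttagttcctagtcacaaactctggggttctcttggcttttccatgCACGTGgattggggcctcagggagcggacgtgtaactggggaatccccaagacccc
H4C11, chr6:27824539-27824644, plus strand: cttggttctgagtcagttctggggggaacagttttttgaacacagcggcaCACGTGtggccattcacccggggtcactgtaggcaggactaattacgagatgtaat
PRKAR1A, chr17:68511943-68511972, plus strand: tctgagacgcccCACGTGggtcggccaggg
COL20A1, chr20:63319992-63320097, plus strand: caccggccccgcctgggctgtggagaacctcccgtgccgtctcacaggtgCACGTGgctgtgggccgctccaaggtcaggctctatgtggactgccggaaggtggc

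Next to these stand stretches around the summits of peaks that trametinib shared but that held neither CACGTG nor, in the stretch shown, CACGCG, the noncanonical E-box. HAUS7 encodes a subunit of the augmin complex of the spindle, and ZNF778 a zinc finger protein. The HAUS7 peak did hold CACGCG within 100 bp of its summit, outside the stretch shown.
HAUS7, chrX:153470363-153470449, plus strand: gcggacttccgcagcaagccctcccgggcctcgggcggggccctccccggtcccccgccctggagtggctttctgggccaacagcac
ZNF778, chr16:89217441-89217541, plus strand: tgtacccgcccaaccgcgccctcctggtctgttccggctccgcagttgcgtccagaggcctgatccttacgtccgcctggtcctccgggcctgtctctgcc

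Behind each fold enrichment and p-value of MACS2 stands the pileup at the summit, a count of tags, which are reads extended to the fragment length. That number could be recovered for 100% of peaks in every list. Depth in calling was estimated from the genome-wide background, the shortest peak and an assumed genome size. It ran from 22700000 tags for IgG to 24800000 for trametinib, with 24000000 for DMSO and 24300000 for AMG510. The study reported fewer uniquely mapped reads for every library, with trametinib the lowest rather than the highest. The extension was longer in DMSO (177 bp) than in AMG510 (157 bp), and the genome-wide background was 1.57 against 1.42 tags. Both mates of a pair may have entered as tags, and the estimated tags did outnumber the reported reads. If mates were counted apart, counting intervals on tags are too narrow.

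The peaks rested on few tags. The median was 12 tags (quartiles 10 and 14, range 7 to 27), against 15 for the 1549 AMG510 promoter peaks that overlapped a DMSO peak and 10 for the 7136 AMG510 peaks elsewhere without one. A pileup of 12 tags has an exact Poisson interval of 6.20 to 21.0. Fold enrichment, the ratio of the pileup to the local background, had a median of 4.40, against 4.91 and 4.31 in those other sets. A fold above 5 was reached by 275 of the peaks (21.9%), against 45.8% of the promoter peaks with a DMSO counterpart. The peaks were also narrower, with a median width of 200 bp against 273 bp. These values come from the list that chose the peaks and are given as a description.

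The DMSO list gives no value at a site where no peak was called. Nor does it give the number of tags a call needed there, so this limit was estimated. The estimate took the local background of each AMG510 peak, scaled by the genome-wide backgrounds of DMSO and AMG510. The local DMSO background at these sites was not known. By this estimated limit, a DMSO call needed 8 to 15 tags (median 9). In 81 of the 1257 peaks (6.44%, interval 5.21 to 7.94) the lower bound of the AMG510 tag count, scaled to DMSO depth, reached this limit. The number was 238 (18.9%) with the limit at the genome-wide DMSO background and 13 (1.03%) with tags and limit halved, as would apply if both mates of each pair were counted. In 111 peaks the AMG510 count itself, scaled to DMSO depth, was below the estimated limit. The limit carried the longer DMSO extension, whereas AMG510 counts were scaled by depth alone, which made the limit harder to reach. On these estimates, the counts for most of the peaks could not separate a lower DMSO signal from an equal one that missed the limit.

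The peak of largest fold lay at CHSY1 (chr15:101252064-101252275), 107 bp upstream of a TSS. It had 19 tags in AMG510 (11.4 to 29.7) at a fold of 8.28, where the estimated limit for a DMSO call was 8 tags. Trametinib and IgG had no overlapping peak. DMSO had a CHSY1 promoter peak of 14 tags, with its summit 256 bp away and an edge only 31 bp from the AMG510 peak, so the gene itself was not without a DMSO call. WDFY1, which encodes an endosomal phosphoinositide-binding protein, had the same arrangement, with 18 AMG510 tags at a fold of 7.58 and a DMSO peak of 11 tags 209 bp further on. RPL3, a protein of the large ribosomal subunit, had the highest tag count of all. Its peak (chr22:39319365-39319613, in intron 1) held 27 tags in AMG510 (17.8 to 39.3) and 24 in trametinib, and a separate DMSO peak 80 bp from it held 15. The RPL3 counts in both drug libraries thus lay above the estimated limit of 11 tags for a DMSO call there.

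Other peaks of large fold lay at promoters with no DMSO peak at all. The start shared by CCDC40, an assembly factor of cilia, and TBC1D16, a Rab GTPase-activating protein, had 24 tags (15.4 to 35.7) at a fold of 7.15, and the nearest DMSO peak was 178009 bp away. PES1 (chr22:30591721-30591920, in exon 1) had 16 tags at a fold of 6.95, HADHB, a subunit of the mitochondrial trifunctional protein of fatty acid oxidation, had 20 at 6.91, and HNRNPC, an RNA-binding protein of splicing, had 20 at 6.63. XPO1 had 22 tags (13.8 to 33.3) at a fold of 6.61. None of these 5 promoters had an overlapping trametinib peak. ARPP19, an inhibitor of a mitotic phosphatase, and BZW1, a regulator of translation initiation, also lacked a DMSO promoter peak but were called again in trametinib. Each had 18 tags in AMG510 at a fold of 6.73, with 11 tags in trametinib at ARPP19 and 10 at BZW1. In all 20 peaks of largest fold the lower bound of the AMG510 count exceeded the DMSO limit, a pattern that follows from ranking by fold. This count takes each tag as 1 observation, and with tags and limit halved only 13 of all 1257 peaks would exceed it.

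**Figure D1:**
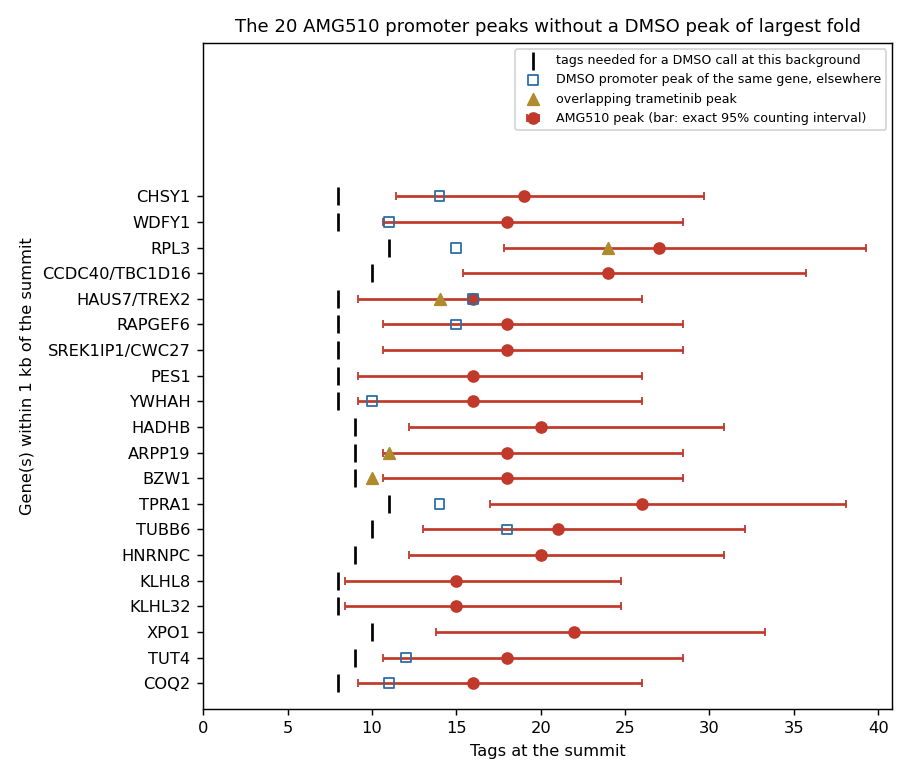
Tags at the summit (x axis) for the 20 AMG510 promoter peaks without a DMSO peak of largest fold, 1 row per peak, named by the genes within 1 kb. Circles show AMG510 tags with exact 95% Poisson intervals, and black ticks the limit for a DMSO call, estimated from the AMG510 local background. Squares show a DMSO promoter peak of the same gene at another position and triangles an overlapping trametinib peak. RPL3, at 27 tags, has the highest count and is 1 of 4 peaks with a triangle.

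Where the same gene had a DMSO promoter peak, the AMG510 peak mostly lay close by. In the 383 pairs the summits were a median of 599 bp apart (quartiles 394 and 1038 bp), and 279 were under 1 kb apart. The DMSO peak had the higher tag count in 292 pairs, the AMG510 peak in 60, and 31 were equal, with medians of 16 and 12 tags. These counts were not scaled for the longer extension in DMSO (177 against 157 bp). The rule also leaves out the AMG510 promoter peaks that overlap a DMSO peak, whose median tag count was higher. YWHAH, which encodes a 14-3-3 protein, was among the 60, with 16 tags in AMG510 and 10 in the DMSO peak 584 bp away. POLR1C, a subunit shared by RNA polymerases I and III, was among the 292, with 11 against 24 tags 578 bp apart, on a peak shared with YIPF3. HSPD1, the mitochondrial chaperonin, had 13 against 29 but was not a close pair, since the summits were 16939 bp apart and the AMG510 peak was shared with the start of MOB4.

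Seen from the peaks, 309 of 1257 lay within 1 kb of a DMSO peak, 61 of them within 100 bp. At the other end, 516 lay 10 to 99 kb and 346 at least 100 kb from any DMSO peak. The gap was 0 bp at RUFY2, which had 11 tags at a fold of 4.40, 4 bp at BAG2 (12 tags, 4.63) and 5 bp at HEATR1 (13 tags, 3.97). Just outside the rule was CTTN (10 tags, 3.92), which a DMSO peak overlapped by 4 bp. At the other limit, the ATOH1 summit lay 1000 bp from a TSS (10 tags, 4.55) and that of POC1B-GALNT4, left out, at 1001 bp (7 tags, 3.31).

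The rule fixed the distance at 1 kb but not how peaks were spread around it. AMG510 peaks without a DMSO peak had a density of 34.9 per Mb of sequence within 250 bp of a protein-coding TSS (32.5 to 37.5). It was 17.6 per Mb from 250 to 500 bp, 5.67 from 500 to 1000 bp and 2.37 from 1 to 2 kb (1.99 to 2.79). Further out it stayed between 2.34 and 3.09 per Mb. IgG peaks went only from 1.92 per Mb within 250 bp (1.39 to 2.60) to 1.00 at 1 to 2 kb. The concentration at starts was thus larger than that of the IgG library, and the peaks without a DMSO counterpart shared it with those that had one, which went from 48.8 to 0.42 per Mb over the same range.

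**Figure D2:**
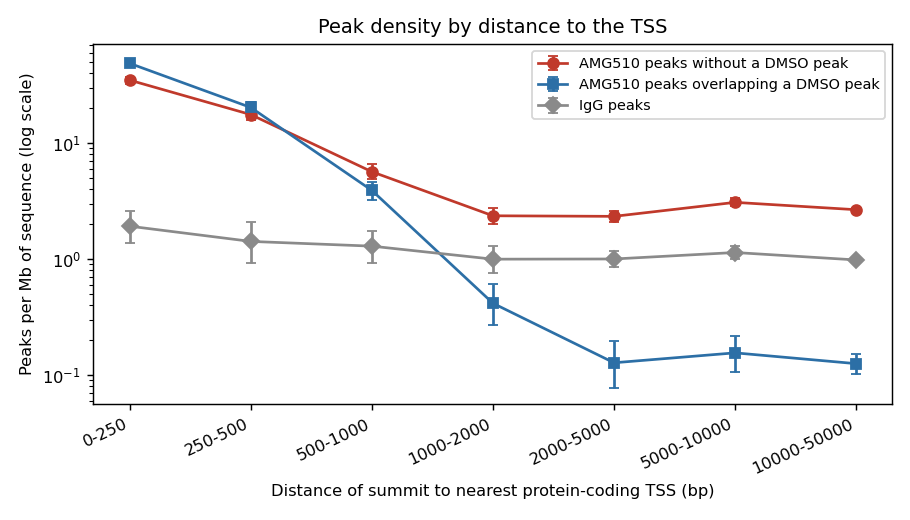
Number of peaks per Mb of sequence (y axis, log scale) by distance of the summit to the nearest protein-coding TSS in bp (x axis). Bars are exact 95% Poisson intervals. AMG510 peaks without a DMSO peak fall from 34.9 to 2.37 per Mb between the bin at the start and that at 1000 to 2000 bp, and IgG peaks from 1.92 to 1.00.

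Within the promoter, 766 summits (60.9%, 58.2 to 63.6) lay within 250 bp of a TSS, against 69.0% (66.7 to 71.3) of promoter peaks with a DMSO counterpart and 38.5% (29.9 to 47.9) of the 109 IgG promoter peaks. Of the 1257 summits, 36.5% lay upstream of the nearest TSS. On the canonical transcript, 532 summits (42.3%) lay in an intron, 454 of them in intron 1, 353 upstream, 196 in a 5′ UTR and 174 in a coding exon. The only 2 summits beyond the end of a transcript were at the short histone genes H4C11 and H4C13, both with 17 tags and named here after their values were seen. A peak between genes of opposite strand was found in 132 cases (10.5%, 8.93 to 12.3), against 12.7% (11.2 to 14.5) with a DMSO counterpart. Such a peak cannot be assigned to a single gene and is counted for each gene within 1 kb.

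An IgG peak overlapped 1 of the 1257 peaks (0.0796%, 0.0140 to 0.449), against 1.99% of all AMG510 peaks. Of those 207 overlapped AMG510 peaks, 159 lay away from promoters and also overlapped a DMSO peak. Among promoter peaks with a DMSO counterpart the share was 0.194%, a difference of −0.11 points whose interval held 0 (−0.49 to 0.28). The 1 overlapped peak lay at NAP1L4, a histone chaperone gene named here after its values were seen, where AMG510 had 11 tags. The IgG library was made from DMSO-treated cells only, so an IgG signal under AMG510 was not measured.

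The trametinib library took no part in the rule. A trametinib peak overlapped 123 of the 1257 peaks (9.79%, 8.26 to 11.6), against 11.6% of all AMG510 peaks. It was 18.1% when a trametinib peak within 1 kb counted, and 20% (12.3 to 30.8) of the 70 peaks with a score above 60. By overlap, the share was 49.2% (46.7 to 51.7) for promoter peaks with a DMSO counterpart, a difference of −39.4 percentage points (Newcombe interval −42.3 to −36.4). It was 0.897% (0.703 to 1.14) for peaks elsewhere without a DMSO peak, a difference of 8.89 points (7.35 to 10.7). These peaks were thus found again in trametinib more often than AMG510 peaks elsewhere without a DMSO peak. They were found again much less often than promoter peaks that DMSO also had, and than AMG510 peaks elsewhere that overlapped a DMSO peak (57.6%). In the 123 pairs the medians were 13 tags in AMG510 and 14 in trametinib, the summits were a median of 88 bp apart, and 70 pairs were within 100 bp. Of the 123 trametinib peaks, 10 overlapped a DMSO peak. AMG510 and trametinib were set against the same DMSO library, so absence from DMSO is not independent in the 2 comparisons.

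The peaks of largest fold shared with trametinib, after RPL3, HAUS7, ARPP19 and BZW1, were at ZNF778 (18 tags in AMG510, 13 in trametinib), at TK2, the mitochondrial thymidine kinase (21 and 13), at PHF1, a Polycomb-associated protein (21 and 15), at CKS2, a partner of cyclin-dependent kinases (21 and 17), and at GPCPD1 (19 and 16) and PRKAR1A (19 and 10). HAUS7, with TREX2 on the same promoter, had 16 tags in AMG510 and 14 in trametinib, and a DMSO peak 125 bp from it held 16. The counts were higher in AMG510 in each of these 10, a direction to which the ranking by AMG510 fold contributes.

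At the level of genes, 1380 of 19663 protein-coding genes (7.02%) had such a peak, and 961 of them had no DMSO promoter peak (4.89% of all genes). For scale, the DMSO list placed a peak at the promoter of 24.2% of genes, the AMG510 list of 15.3%, that of trametinib of 11.8% and the IgG list of 0.559%. Such a peak was found at 6.45% of the genes without a DMSO promoter peak and at 8.8% of the 4761 genes with one, so these peaks were not more frequent where DMSO had none. Of these 961 genes, 134 (13.9%) had a trametinib promoter peak, against 4.33% of all genes without a DMSO promoter peak and 512 (3.67%) of the 13941 genes with neither such a peak nor a DMSO promoter peak. The other 827 had a c-MYC promoter peak in the AMG510 list alone. 31 genes had 2 such peaks.

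The canonical E-box CACGTG stood within 100 bp of the summit in 78 of the 1257 peaks (6.21%, 5.00 to 7.68). The share was 21.0% (19.1 to 23.1) for promoter peaks with a DMSO counterpart, a difference of −14.8 points (−17.3 to −12.4), and 2.52% for peaks elsewhere without one, a difference of 3.68 points (2.42 to 5.19). Windows of the same length around 78449 protein-coding starts held it in 5.16% (5.01 to 5.32), and those around 20033 canonical starts in 5.67% (5.35 to 5.99), both inside the interval of the peaks. In windows 1 kb away from the summits it was 3.06% (2.46 to 3.81). The 78 E-boxes lay a median of 43 bp from the summit, against 44.5 bp for the 326 with a DMSO counterpart, and 55.1% of them (44.1 to 65.7) were within 50 bp, against 57.4% (51.9 to 62.6). Windows centred on starts and on summits cover different positions. The E-box share over all 1257 peaks was near that of windows centred on starts and above that of windows 1 kb away. It was higher among the stronger peaks, at 8.73% (5.93 to 12.7) of those with a fold above 5 and 15.7% (9.01 to 25.99) of the 70 with a score above 60, both above the share at all starts.

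The noncanonical CACGCG, searched on both strands, was in 14.5% of the peaks (12.6 to 16.5), above the 9.40% of all starts (9.19 to 9.60) and the 10.7% of canonical starts (10.3 to 11.2) but below the 26.4% (24.3 to 28.7) with a DMSO counterpart. The windows were rich in G and C, with a median of 70.1%, against 73.1% with a DMSO counterpart, 63.2% at all starts and 45.8% for peaks elsewhere without a DMSO peak. Observed over expected CpG had medians of 0.82, 0.88, 0.72 and 0.19 in the same order. Among peaks also called in trametinib, CACGCG was in 21.1% against 13.8% of the others, a difference of 7.38 points (0.75 to 15.6), whereas for CACGTG the difference of 2.13 points had an interval that held 0 (−1.83 to 8.45).

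**Figure D3:**
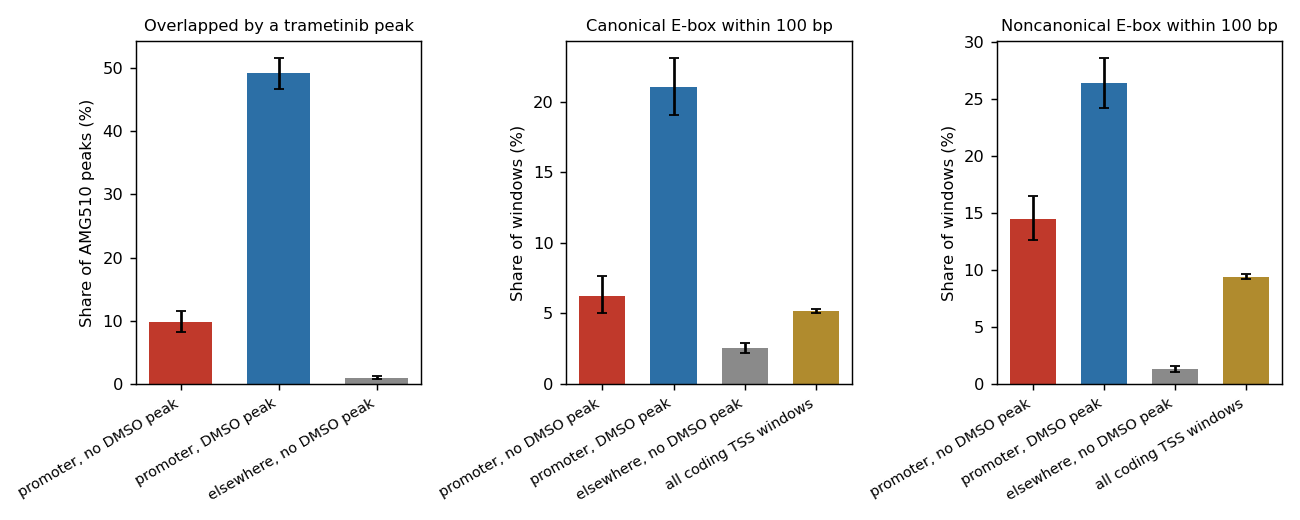
Share (y axis, %) of AMG510 peaks overlapped by a trametinib peak and of windows with a canonical or noncanonical E-box within 100 bp of the summit, for promoter peaks without and with a DMSO peak, for peaks elsewhere without a DMSO peak and, for the motifs, for windows around all protein-coding TSS. Bars are shares with 95% Wilson intervals. The promoter peaks without a DMSO peak stand at 9.79, 6.21 and 14.5%, below those with one in each panel.

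Motifs of other promoter factors were searched on both strands. In percentage points, they set the peaks apart less from promoter peaks with a DMSO counterpart than the E-boxes did. Some differed more from other windows. GGGCGG, bound by SP and KLF factors, was in 52.8% of the windows, against 62.4% with a DMSO counterpart, 53.7% of canonical starts and 5.18% of peaks elsewhere without a DMSO peak. CCGGAAG, bound by ETS factors, was in 6.76% against 6.78%, a difference of −0.016 points (−1.87 to 1.89), and in 11.3% of canonical starts. CCAAT, bound by NF-Y, was in 10.3% against 7.36%, a difference of 2.90 points (0.80 to 5.07), and in 25.3% of canonical starts and 24.96% of peaks elsewhere without a DMSO peak. The motif of NRF1, AAGATGGC (YY1), TGANTCA (AP-1) and TATAAA (the TATA box) were each in at most 2.15% of the windows. TATAAA was in 2.15% against 0.84% with a DMSO counterpart, a difference of 1.31 points (0.42 to 2.33). For the motifs of NRF1, YY1 and AP-1 the interval of the difference held 0. A match describes the letters of the window and does not show that the factor was bound.

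Since peaks with a DMSO counterpart were also stronger, the shares were compared within bins of fold enrichment set at the quartiles of the 1257 peaks. Below a fold of 3.94, trametinib overlapped 9.12% of the peaks (6.42 to 12.8) against 34.0% (27.9 to 40.7) with a DMSO counterpart. For peaks elsewhere without a DMSO peak it was 0.656%. Above a fold of 4.96 the shares were 11.2% (8.15 to 15.2), 61.2% (57.7 to 64.7) and 1.67%. The canonical E-box was in 5.35% (3.36 to 8.39) against 15.5% (11.2 to 21.1) in the lowest bin and in 8.63% (5.996 to 12.3) against 26.5% (23.5 to 29.8) in the highest. The order of the sets was therefore the same in the lowest and the highest bin, for trametinib as for the E-box. The bins did not make strength equal. In the highest bin, which has no upper bound, the peaks had medians of 5.38 in fold and 14 tags. Those with a DMSO counterpart had 5.80 and 18.

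**Figure D4:**
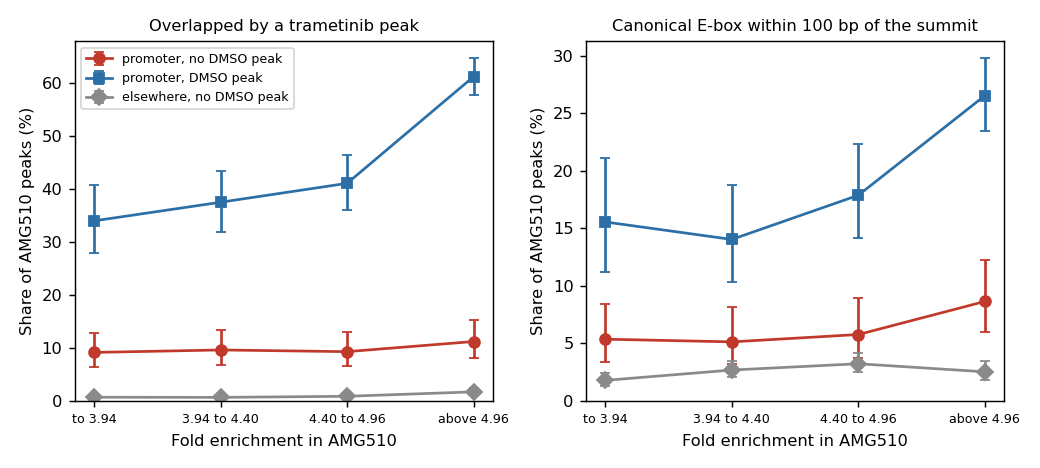
Share of AMG510 peaks (y axis, %) overlapped by a trametinib peak (left) and with a canonical E-box within 100 bp of the summit (right) in 4 bins of AMG510 fold enrichment (x axis). Bars are 95% Wilson intervals. In the highest bin 11.2% of promoter peaks without a DMSO peak and 61.2% of those with one are overlapped by trametinib.

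Known MYC target groups and other groups, 21 gene lists in all, were then each set against the background of 7.02% of protein-coding genes. RNA polymerases I and III, which make ribosomal and transfer RNA, had the largest share, with 7 of 32 genes (21.9%, 11.02 to 38.8), 3 of which had a DMSO promoter peak elsewhere. Values of the 7 were low, with 11 tags at POLR1E and 12 at POLR1F, both subunits of RNA polymerase I, 13 at POLR1G and 14 at GTF3C5, a subunit of transcription factor IIIC. POLR1F was called again in trametinib with 15 tags. The peaks at POLR1G, POLR1C, POLR3C and BRF1 were shared with PPP1R13L, YIPF3, RNF115 and PACS2, in that order. None of these shared peaks can be assigned to a single gene. Splicing factors had 12 of 81 genes (14.8%, 8.68 to 24.1). Besides HNRNPC they included HNRNPUL2 (13 tags in AMG510 and 13 in trametinib), SRSF3 (16 and 12) and HNRNPA2B1 (20 and 31, with a separate DMSO peak of 25). Cytosolic ribosomal proteins had 11 of 83 genes (13.3%, 7.56 to 22.2), in a list where 67 genes had a DMSO and 62 a trametinib promoter peak. Besides RPL3, RPL13A had 22 tags, RPL41 15, RPS28 14 on a peak shared with NDUFA7, and RPL21 13. The DMSO peak of RPL21 held 22 tags, with its summit 2138 bp away. In these 3 lists alone did the interval lie above the background of 7.02%. Of genes with a DMSO promoter peak, 8.8% had such a peak, a share inside the intervals of ribosomal proteins and splicing factors. The interval of RNA polymerases I and III lay above it. With 21 lists compared and no test made, nothing particular to the 3 lists is read from this.

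Other lists of growth genes had intervals that held the background, though some had shares above it. Ribosome biogenesis had 9 of 77 genes (11.7%, 6.27 to 20.7), with PES1, the neighbours NOC4L and DDX51 on a single peak (14 tags), RRP36 (14), MPHOSPH10 (14) and IMP3 (11). Translation factors had 7 of 55 (12.7%, 6.30 to 24.0), among them EIF4E2 with 16 tags, EIF1 with 16 and EIF3J with 13, of which EIF1 (19 tags) and EIF3J (16 tags) were called again in trametinib. Mitochondrial import had 5 of 35, 14.3% with an interval of 6.26 to 29.4 (TIMM23, TIMM21, HSPD1, TOMM22 and TIMM10B, 8 to 13 tags), the respiratory chain 8 of 116, led by COX16 with 14 tags and ATP5PB with 15, and mitochondrial ribosomal proteins 5 of 78, led by MRPS34 with 16. The peaks at TIMM21, TIMM10B, ATP5PB and MRPS34 were shared with FBXO15, ARFIP2, WDR77 and EME2, in that order. Further peaks of the lists also lie at more than 1 gene and are counted for each. Aminoacyl-tRNA synthetases had 3 of 37 (VARS1, AARS1 and CARS2), the proteasome 4 of 48 (PSMA1, PSMD1, PSMA3 and PSMA8), and the CCT chaperonin 1 of 8 (CCT8). Cell cycle genes numbered 5 of 66 (PLK1, E2F5, CDC16, RBL1 and PLK2) and DNA replication genes 4 of 54 (GMNN, RFC1, GINS1 and GINS2).

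Metabolic lists were followed because the study addressed lipid metabolism. Fatty acid, cholesterol and sphingolipid synthesis had 6 of 63 genes (9.52%, 4.44 to 19.3). KDSR, of sphingolipid synthesis, had 20 tags against 18 in its separate DMSO peak, EBP, a sterol isomerase, had 14 with no DMSO promoter peak, and INSIG1, which holds back SREBP activation, had 14 with 13 in trametinib. HACD2, of fatty acid elongation, and PMVK, of the mevalonate pathway, had 15 tags each, with 15 and 19 in their DMSO peaks. Lysosome and autophagy genes numbered 12 of 115 (10.4%, 6.07 to 17.4), among them the proton pump subunits ATP6V0A1 (14 tags) and ATP6V1H (13) and the lysosomal hydrolases GLA, HEXA and LIPA (10, 10 and 11). The GLA peak also lies at HNRNPH2 and the LIPA peak at IFIT5, so neither peak can be assigned to a single gene. Glycolysis had 3 of 22 (HK1, GPI and ALDOA), nucleotide synthesis 2 of 32 (SHMT2 and ADSS1) and polyamine and amino acid supply 3 of 27 (among them SLC3A2 and PSPH), each with an interval that held 7.02%.

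Among regulators, the MYC network had such a peak at 1 of 13 genes, MGA, a MAX partner, with 9 tags. The DMSO promoter peak of MGA, with 11 tags, had its summit 39175 bp away. Genes of ERK feedback and the immediate early response numbered 4 of 39. MCL1, an anti-apoptotic protein, had 18 tags, KLF4 13, with 27 in its DMSO peak, SPRY4, an inhibitor of receptor signalling, 13 at the low fold of 2.66, and ELK1, a target of ERK, 9. Zinc finger genes had 40 of 554 (7.22%, 5.35 to 9.68), close to the background, led by ZNF778, ZNF143, ZNF250, ZNF875 and ZNF181 with 14 to 18 tags.

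**Figure D5:**
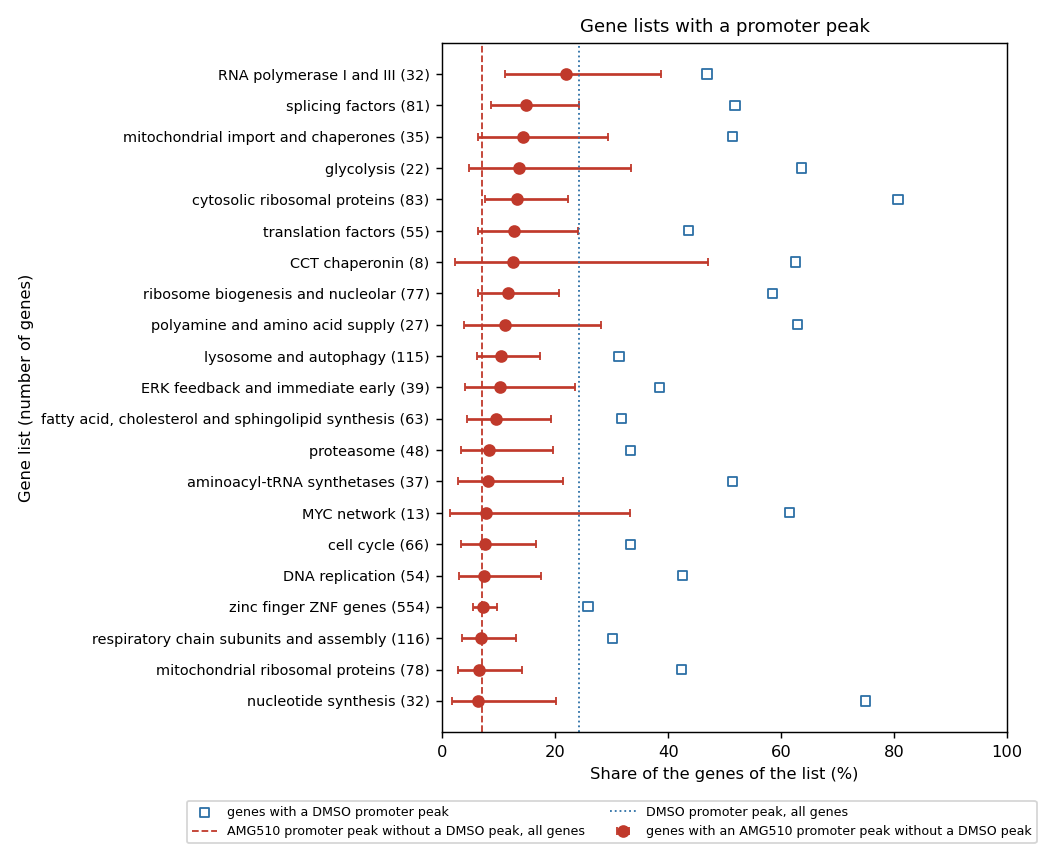
Share of the genes of each list (x axis, %) with an AMG510 promoter peak without a DMSO peak (circles, 95% Wilson intervals) and with a DMSO promoter peak (squares). Vertical lines give both shares over all protein-coding genes, 7.02% and 24.2%. The circles range from nucleotide synthesis at 6.25% to RNA polymerases I and III at 21.9%.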

How the data were processed

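Peak lists of 4 ChIP-seq libraries of MIA PaCa-2 cells were used, grouped by sample title. According to their methods and processing notes, the authors used Trimmomatic 0.39 for trimming and BWA 0.7.17 for alignment to GRCh38, removed duplicates with Picard, called peaks for each library with MACS2 2.2.7.1 and removed regions of the ENCODE exclusion list. The deposited lists give per peak a score (−log10 q-value times 10), a fold enrichment (a ratio of pileup to background), a −log10 p-value and a −log10 q-value, all computed by the authors. Scores and q-values served to rank and filter peaks of the same list. Fold and p-value were also used to recover tags, which were set side by side between lists without scaling for depth, except against the DMSO limit.

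Tags at the summit were recovered as the whole number that gives both the fold and the p-value, within 0.001 of the deposited −log10 p-value. Depth was taken from the genome-wide background, the shortest peak and a genome size of 2700000000 bp. The DMSO limit used the local background of each AMG510 peak, scaled by the genome-wide backgrounds, and the smallest −log10 p-value of the DMSO list. Starts were those of protein-coding transcripts in GENCODE 44 outside the mitochondrial genome. Overlap meant at least 1 bp. Motifs were searched on both strands in 201 bp of GRCh38 centred on the summit. Shares have 95% Wilson intervals, differences Newcombe intervals and tags exact Poisson intervals, computed with scipy 1.17.1. With 1 library per group no test was made. Tag recovery, overlap and motif search were tested on simulated data. Alternatives varied the TSS distance and set, the peak threshold, the meaning of overlap and the motif window.

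The named peaks are the 20 of largest fold, the 10 of largest fold among those overlapped by trametinib, among those with CACGTG and among those whose gene has no DMSO promoter peak, and up to 5 per gene list by fold. The peaks, rules and gene lists were chosen with earlier results of these data known. The translation factor list was narrowed after its members were seen, and POLR1A and POLR1B stand in both the ribosome biogenesis and the RNA polymerase list. What AMG510 inhibits is not reported here.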

Additional observations from a re-analysis of the deposited data

How the results depend on the processing

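The number of peaks stayed between 948 and 1467 when the TSS distance, the TSS set or the meaning of overlap was changed, rose to 1739 when only DMSO peaks with a fold above 5 were counted, and fell to 275 with a fold above 5 and to 70 with a score above 60. The share with a DMSO promoter peak at the same gene was 24.9% with a TSS distance of 500 bp, 8.23% when no DMSO peak was allowed within 1 kb, 26.5% with a fold above 5 and 34.3% with a score above 60. The trametinib share was 12.4% with a fold above 5, 20% with a score above 60 and 18.1% when a trametinib peak within 1 kb counted, and the IgG share was 0% with a fold above 5 and 0% with a score above 60. The E-box share was 8.73% with a fold above 5, 15.7% with a score above 60, 3.34% within 50 bp, 10.5% within 200 bp and 19.6% with CACGCG counted. Its difference from promoter peaks with a DMSO counterpart kept its sign in all 7 alternatives, at −8.41 points within 50 bp, −19.0 within 200 bp, −23.5 with CACGCG and −18.1 with a fold above 5. Without DMSO peaks within 1 kb it was −15.1, and with a score above 60 it was −12.8 (−20.8 to −1.75), both chosen after seeing the data, as were the bins of fold. The share of peaks with a tag interval above the DMSO limit was 18.9% with the limit at the genome-wide background and 1.03% with tags and limit halved for mates. Genes of the lists with such a peak numbered 152, and 165 with the TSS of every transcript. No paired analysis was possible because there was a single library for every condition, which also left no replicate to omit.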
